A study of Mus musculus with 35 samples.

Results

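The genes examined were 10 genes of the vascular endothelium, the cell layer that lines blood vessels: Pecam1, Cdh5, Esam, Cldn5, Emcn, Kdr, Flt1, Flt4, Tie1 and Tek. They were chosen by name from 30723 gene symbols, and their transcript values were summed per gene in every library. All 10 were kept by the filter on low values, which asked for a tissue with a mean of 1 FPKM or more and kept 13934 genes. RNA-seq had been performed on wild-type CD1 mouse embryos at embryonic day 11.5, in 6 tissues: the frontonasal (FNP), mandibular (MNP) and maxillary (MXP) prominences of the face, limb, and the brain, divided into dorsal (dB) and ventral (vB) parts. The 35 libraries comprised 6 each of FNP, MNP, dB, vB and limb and 5 of MXP, and each library came from tissue pooled over several embryos. FNP, MNP and MXP form facial tissue and dB and vB neural tissue, which the sample labels name dorsal and ventral neural tube.

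Endothelial cells hold to each other through junctions and read growth factors through a small set of receptor tyrosine kinases. Ligands of the VEGF family act on Kdr, Flt1 and Flt4 and drive the growth of new vessels, and the angiopoietins act on Tek and maintain them. At midgestation vessels enter the brain from a plexus around the neural tube, and Wnt signals from neural progenitors induce barrier properties there, among which tight junctions rich in Cldn5 are best known. The comparison addresses how much endothelial transcript each tissue contained and whether its makeup differed.

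The genes lie on several chromosomes of mm10 and differ widely in transcript length. Coordinates of the whole genes are from GENCODE. Cldn5 is a gene of a single exon (chr16:18776847-18778262, plus strand, 1416 bases), Esam lies at chr9:37528078-37538319 (plus strand), and Emcn spans chr3:137341067-137432185 (plus strand). Pecam1 lies at chr11:106654217-106750628 (minus strand) and Cdh5 at chr8:104101625-104144511 (plus strand). The VEGF receptor genes are Kdr (chr5:75932827-75978458, minus strand), Flt1 (chr5:147561604-147726011, minus strand) and Flt4 (chr11:49609263-49652739, plus strand). Tie1 (chr4:118471191-118490061, minus strand) and Tek (chr4:94739289-94874976, plus strand) are on the same chromosome. The listed transcripts of Flt4, Kdr and Flt1 reach 5839, 5451 and 6280 bases.

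Promoter sequence is shown for Cldn5 and Flt4, which differed between neural and facial tissue in opposite directions, for Tek, the member that differed between dB and vB, and for Emcn, whose libraries ranged from 2.64 to 26.8 FPKM. These are the 250 bases before the annotated start, written 5′ to 3′ on the gene's strand, from RefSeq (GRCm38.p6), which had entries for 7 of the 10 genes. Capitals mark the letters AGGAA on either strand (TTCCT on the other), the core to which ETS factors bind. The regions are chr16:18776597-18776846 for Cldn5, chr11:49609429-49609678 for Flt4, chr4:94739039-94739288 for Tek and chr3:137340828-137341077 for Emcn.
Cldn5: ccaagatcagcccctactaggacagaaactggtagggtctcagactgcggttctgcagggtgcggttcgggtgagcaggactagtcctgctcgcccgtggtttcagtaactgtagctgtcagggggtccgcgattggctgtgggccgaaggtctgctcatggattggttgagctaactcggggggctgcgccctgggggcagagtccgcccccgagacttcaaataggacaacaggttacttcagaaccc
Flt4: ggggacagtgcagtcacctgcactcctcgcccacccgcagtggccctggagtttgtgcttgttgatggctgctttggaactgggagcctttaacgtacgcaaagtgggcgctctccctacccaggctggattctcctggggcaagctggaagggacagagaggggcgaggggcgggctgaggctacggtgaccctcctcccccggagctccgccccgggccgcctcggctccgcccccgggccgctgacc
Tek: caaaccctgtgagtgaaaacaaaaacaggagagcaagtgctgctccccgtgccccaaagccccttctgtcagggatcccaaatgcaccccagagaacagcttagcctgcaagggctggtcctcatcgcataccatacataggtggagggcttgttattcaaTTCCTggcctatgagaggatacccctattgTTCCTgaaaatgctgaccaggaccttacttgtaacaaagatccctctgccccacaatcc
Emcn: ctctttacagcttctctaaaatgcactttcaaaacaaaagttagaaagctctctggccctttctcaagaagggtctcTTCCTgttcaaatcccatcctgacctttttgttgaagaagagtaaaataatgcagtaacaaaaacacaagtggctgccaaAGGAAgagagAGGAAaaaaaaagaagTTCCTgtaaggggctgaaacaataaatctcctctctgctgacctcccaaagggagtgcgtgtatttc
AGGAA was found in 4 of the 7 promoters (Emcn with 4 matches, and Tek, Tie1 and Flt1 with 2 each), and in 60.3% of 32851 promoters of the same length. The GC box GGGCGG, with its reverse complement CCGCCC, was also found in 4 of the 7, with 3 matches each in Flt4 and Flt1, 2 in Kdr and 1 in Cldn5, against 32.7% of all promoters. The matches are a description of these windows.

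Several libraries stood apart before any comparison. In vB replicate 4, genes with transcripts of at least 5000 bases fell below their tissue median relative to genes of at most 2000 bases (a difference of −0.97 on the log2 scale), and limb replicate 4 (−0.62) and dB replicate 4 (−0.44) deviated the same way. The replicates numbered 2 of FNP, MNP, MXP, dB and vB lay at 0.34 to 0.51, and that of limb at −0.08. The vB replicates 2, 3 and 6 were low in both endothelial and mesenchymal transcripts, with mean log2 levels of 1.84 to 2.32 for the 10 members against 2.72 to 3.11 in the other vB libraries. Coverage that went with 1 FPKM, the only measure of depth in the tables, ranged from 2.70 to 5.51 and no read counts were given, so no interval for a single library can be stated. FPKM corrects the fragments of a transcript for its length and for library size. Of the other cell types, the neural list was called higher in neural tissue than in facial tissue for 11 of 11 genes tested, and the surface epithelium list was called lower for 9 of 9. The share of all genes called in either direction was 11.3%.

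Endothelial transcripts were found in every tissue, with tissue means that overlapped in their libraries. The summed FPKM of the 10 genes was 79.9 ± 7.56 (SD, n = 6) in dB, 75.7 ± 6.93 in MNP, 69.4 ± 4.07 in FNP, 68.2 ± 9.49 in limb, 62.8 ± 26.8 in vB (SD, n = 6 each) and 60.7 ± 10.9 in MXP (SD, n = 5). Libraries of neighbouring tissues in this order overlapped throughout. In bulk tissue, fewer endothelial cells and less RNA per endothelial cell cannot be told apart. No member was called, which required a fold change of at least 2 and an adjusted p (Benjamini-Hochberg, limma) under 0.05, in any of the 15 pairs of tissues, where 21.3% of all genes were called in at least 1 pair. Counts at this threshold were likewise 0 of 10 between neural and facial tissue (11.3% of all genes), neural tissue and limb (12.4%), facial tissue and limb (2.62%), dB and vB (1.39%), FNP and MNP (2.68%), FNP and MXP (2.28%) and MNP and MXP (1.03%). At an unadjusted p under 0.05 and any fold, limma gave 5 members between neural and facial tissue (58.2% of all genes), 2 between neural tissue and limb (50.6%), 0 between facial tissue and limb (25% of all genes) and 6 between dB and vB (16.7%). Because 1 is added to every FPKM before the logarithm, the folds of low genes come out smaller than ratios of means: mean Flt4 was 2.42 FPKM in MNP and 1.03 in vB. With the adjusted p alone, 8 of 10 members differed in at least 1 of the 15 pairs, against 63.7% of all genes, Flt1 and Tie1 being the exceptions.

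**Figure D1:**
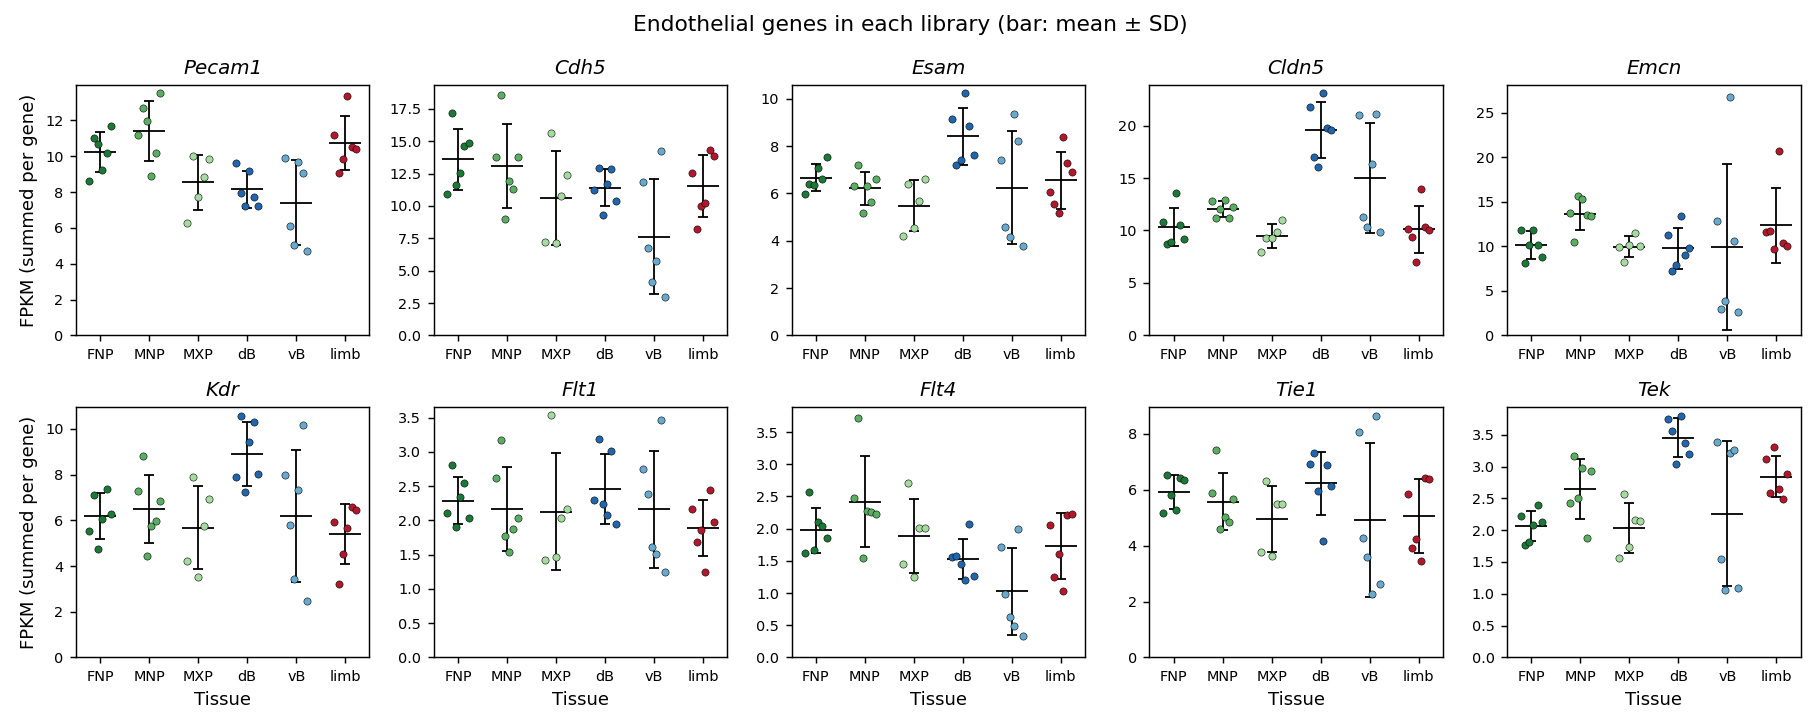
FPKM of each endothelial gene (vertical axis, from 0) in each of the 35 libraries by tissue (horizontal axis), 1 point per library, with the mean ± SD as bars (n = 6, MXP n = 5). Cldn5, Kdr, Esam, Tek, Tie1 and Flt1 have their highest mean in dB, and the vB libraries are spread widely in most panels, from 2.64 to 26.8 FPKM for Emcn.

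Between neural and facial tissue, 1 member was higher and 3 were lower at an adjusted p under 0.05, and the other 6 did not pass. Among all genes 26.8% passed as higher and 26.8% as lower. Against limb, Cldn5 was higher and Pecam1 lower in neural tissue, where 24.3% of all genes passed as higher and 20.6% as lower. Between facial tissue and limb no member passed in limma (0 of 10 also at an unadjusted p under 0.05, with 13.6% of all genes passing the adjusted test). The median log2 fold change of the members was 0.00 between neural and facial tissue, 0.01 between neural tissue and limb and 0.08 between facial tissue and limb, beside −0.02, −0.01 and 0.02 over all genes. No member separated neural libraries from facial or from limb libraries without overlap, where 9.86% and 15.5% of all genes did so.

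The junction genes divided in direction. Cldn5, the main claudin of endothelial tight junctions, was higher in neural tissue. Its lowest, median and highest FPKM were 16.1, 19.7 and 23.1 in dB and 9.88, 13.8 and 21.1 in vB. They were 8.75, 9.85 and 13.5 in FNP, 11.1, 12.1 and 12.9 in MNP and 6.95, 10.1 and 13.9 in limb, and the 5 MXP libraries had 7.97, 9.25, 9.31, 9.83 and 11.01. All dB libraries and vB replicates 1, 4 and 5 thus lay above every facial and every limb library, and vB replicates 2, 3 and 6 lay among them. Cldn5 averaged 17.3 ± 4.62 FPKM in neural tissue (SD, n = 12), 10.7 ± 1.65 in facial tissue (SD, n = 17) and 10.1 ± 2.24 in limb (SD, n = 6). The log2 fold change was 0.62 ± 0.10 (SE) against facial tissue, with an adjusted p of 2.7e-06 in limma, and 0.69 ± 0.13 (SE) against limb, with an adjusted p of 4.9e-05, on the scale of log2(FPKM + 1), as are all fold changes here. Both passed in 16 of 16 alternatives, with log2 fold changes of 0.45 to 0.66 and 0.48 to 0.78. In dB alone the difference was 0.97 against MXP (adjusted p = 9e-06), 0.90 against limb, 0.87 against FNP and 0.65 against MNP. In vB alone the difference was smaller, at 0.55 against MXP (adjusted p = 0.0054), 0.48 against limb (adjusted p = 0.0097) and 0.45 against FNP (adjusted p = 0.017). Between vB and MNP Cldn5 did not pass (0.23, adjusted p = 0.24).

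Pecam1, the adhesion molecule CD31 of endothelial cells that platelets and leukocytes also carry, was lower in neural tissue. Its lowest, median and highest FPKM were 7.21, 7.84 and 9.64 in dB, 4.69, 7.59 and 9.88 in vB and 9.05, 10.5 and 13.4 in limb. In FNP they were 8.65, 10.4 and 11.7, in MNP 8.90, 11.6 and 13.5, and the MXP libraries had 6.30, 7.75, 8.82, 9.83 and 10.005. The ranges overlapped, but all 12 neural libraries lay below the median of the facial libraries and below that of the limb libraries. The log2 fold change was −0.34 ± 0.09 (SE) against facial tissue, with an adjusted p of 0.0019, and −0.44 ± 0.12 (SE) against limb, with an adjusted p of 0.0033. With replicates 4 to 6 alone neither passed (adjusted p = 0.083 and 0.076), and with replicates 1 to 3 alone the difference from limb did not (adjusted p = 0.084). Against single tissues Pecam1 was lower in vB than in MNP (−0.60), limb (−0.52) and FNP (−0.46). In dB it was lower than in MNP (−0.43) and limb (−0.36, adjusted p = 0.046), but not FNP (−0.30, adjusted p = 0.11). Neither dB (−0.05, adjusted p = 0.85) nor vB (−0.22, adjusted p = 0.26) differed from MXP.

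Cdh5, VE-cadherin of the adherens junction, was lower in neural tissue than in the face, by a log2 fold change of −0.42 ± 0.15 (SE) with an adjusted p of 0.018. Its lowest, median and highest FPKM were 2.95, 6.29 and 14.2 in vB, against 9.28, 11.5 and 12.96 in dB, 8.25, 11.4 and 14.3 in limb, 10.9, 13.6 and 17.2 in FNP and 8.97, 12.9 and 18.6 in MNP. The MXP libraries had 7.11, 7.25, 10.7, 12.4 and 15.7. Against single tissues Cdh5 was lower in vB than in FNP (−0.91, adjusted p = 0.0017), MNP (−0.84, adjusted p = 0.0033) and limb (−0.68, adjusted p = 0.016). It passed in no pair of dB with a facial tissue or limb, and between dB and vB itself the difference of 0.68 ± 0.23 (SE) had an adjusted p of 0.089. Neither replicates 1 to 3 nor 4 to 6 alone gave a difference between neural and facial tissue that passed (adjusted p = 0.18 and 0.11).

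Esam, an immunoglobulin-type adhesion molecule at endothelial junctions, averaged 7.33 ± 2.12 FPKM in neural (SD, n = 12) and 6.16 ± 0.888 in facial tissue (SD, n = 17), and the difference did not pass (adjusted p = 0.1). In dB it was higher than in MNP (0.38, adjusted p = 0.044) and MXP (0.54, adjusted p = 0.0061). Emcn, the sialomucin endomucin of capillary and venous endothelium, had 2.64, 7.23 and 26.8 FPKM as the lowest, median and highest vB libraries and 7.22, 9.42 and 13.4 in dB. The value of 26.8 was that of vB replicate 4. The difference between neural tissue and the face did not pass with all libraries (−0.37 ± 0.20 (SE), adjusted p = 0.11) and passed in 7 of 16 alternatives, among them without vB replicate 4 (−0.55, adjusted p = 0.0032). Without that library Emcn also passed as lower than in limb (−0.64, adjusted p = 0.0085). In vB it was lower than in MNP (−0.82, adjusted p = 0.026).

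**Figure D2:**
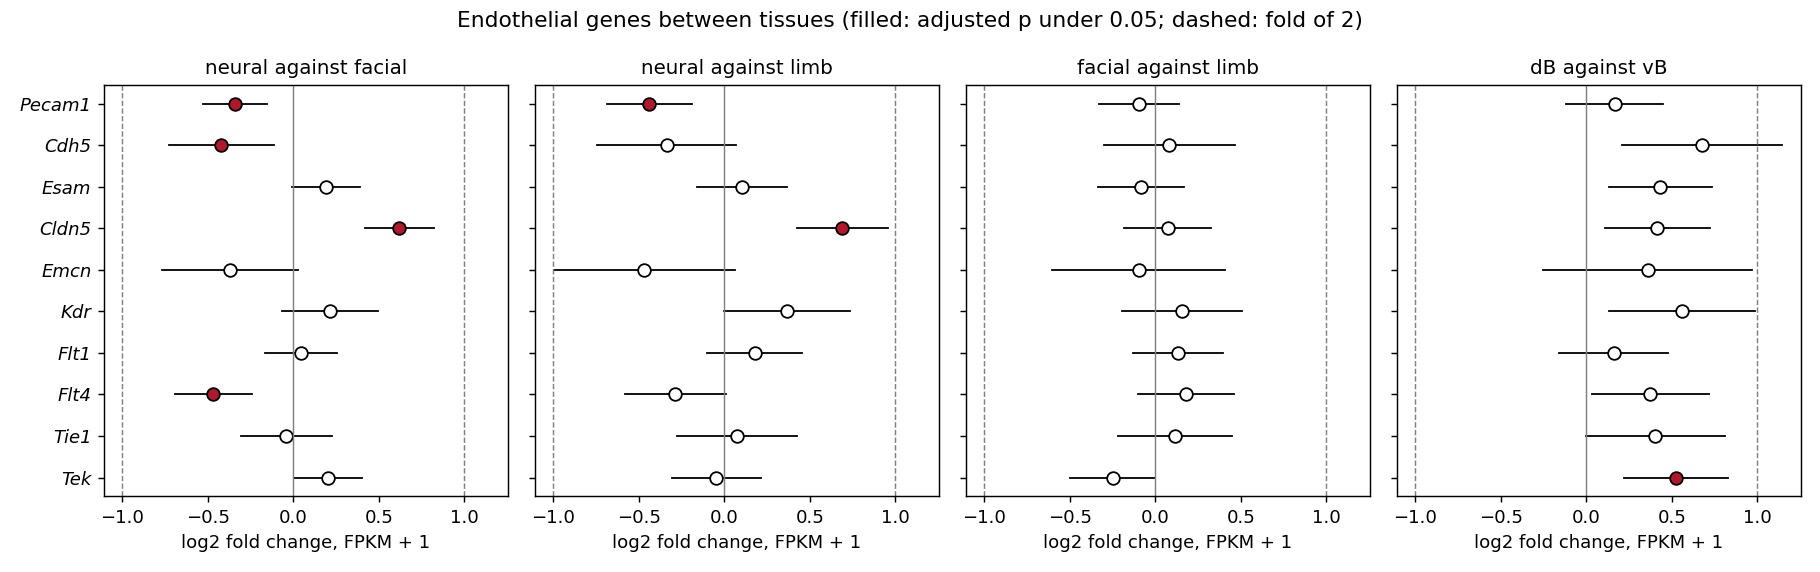
Log2 fold change of FPKM + 1 (horizontal axis) with its 95% interval for each endothelial gene (vertical axis) in 4 comparisons, with filled points at an adjusted p under 0.05 in limma and dashed lines at a fold change of 2. Cldn5 is to the right and Pecam1 to the left in both comparisons of neural tissue, no point is filled between facial tissue and limb, and all points lie to the right between dB and vB.

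Of the VEGF receptors, 1 of 3 passed between neural and facial tissue. Flt4, VEGFR3, which binds VEGF-C and VEGF-D and marks growing and later lymphatic vessels, was lower in neural tissue than in the face, by a log2 fold change of −0.47 ± 0.11 (SE) with an adjusted p of 0.00052, and passed in 16 of 16 alternatives (−0.78 to −0.41). Its lowest, median and highest FPKM were 1.21, 1.51 and 2.08 in dB, 0.335, 0.811 and 1.99 in vB, 1.63, 1.95 and 2.57 in FNP, 1.55, 2.27 and 3.72 in MNP and 1.03, 1.83 and 2.23 in limb. The MXP libraries had 1.25, 1.45, 2.01, 2.01 and 2.70. In 11 of 12 neural libraries Flt4 was below the facial median, and 5 were below every facial library. In vB it was lower than in each of the 4 non-neural tissues (log2 fold changes of −0.80 to −0.47), and in dB it was lower than in MNP (−0.42, adjusted p = 0.048).

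Kdr, VEGFR2, the main signalling receptor for VEGF-A, was higher in dB than in some other tissues. Its lowest, median and highest FPKM were 7.24, 8.73 and 10.6 in dB, 2.49, 6.56 and 10.2 in vB and 3.21, 5.81 and 6.57 in limb, so that every dB library exceeded every limb library. Kdr was higher in dB than in limb by 0.65 ± 0.21 (SE, log2; adjusted p = 0.015) and than in MXP by 0.60 ± 0.22 (SE, log2; adjusted p = 0.032). Over neural tissue as a whole it averaged 7.55 ± 2.58 FPKM (SD, n = 12) against 6.15 ± 1.40 in facial tissue (SD, n = 17), which did not pass (adjusted p = 0.19). Flt1, VEGFR1, which binds VEGF-A tightly and signals weakly, had tissue means of 1.89 to 2.46 FPKM and passed in none of the 15 pairs, and its log2 fold change between neural and facial tissue was 0.05 (95% interval −0.16 to 0.25).

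Of the Tie receptors, Tek (Tie2), which binds the angiopoietins, had its highest values in dB. Its lowest, median and highest FPKM were 3.03, 3.47 and 3.80 in dB, 1.06, 2.38 and 3.38 in vB, 1.77, 2.10 and 2.39 in FNP, 1.88, 2.72 and 3.16 in MNP and 2.49, 2.76 and 3.30 in limb, and the MXP libraries had 1.55, 1.74, 2.15, 2.16 and 2.56. All dB libraries exceeded all FNP and all MXP libraries and overlapped with vB, MNP and limb. Tek was higher in dB than in FNP (0.54, adjusted p = 0.0048), MXP (0.56, adjusted p = 0.0047) and vB (0.53, SE 0.15, adjusted p = 0.033). Tie1, its partner without a well-known ligand, had tissue means of 4.91 to 6.24 FPKM and passed in no pair.

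Within the face, no member passed between FNP and MNP (7.8% of all genes passed), FNP and MXP (6.19%) or MNP and MXP (2.09%). At an unadjusted p under 0.05 the limma counts were 0, 0 and 1 of 10, against 15.9%, 14% and 7.21% of all genes. All 10 log2 fold changes were positive for FNP against MXP (0.02 to 0.37) and for MNP against MXP (0.04 to 0.42), 2 comparisons that share the 5 MXP libraries. MXP replicates 1 and 3 had the lowest summed values of the face, 48.1 and 50.4 FPKM. Between facial tissue and limb, the log2 fold changes ranged from −0.25 for Tek to 0.18 for Flt4, and the widest 95% interval was that of Emcn (−0.60 to 0.41).

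In the brain, 1 of 10 members, Tek, was higher in dB than in vB, against 3.04% of all genes, and none was lower. The log2 fold change was above 0 for all 10, from 0.16 for Flt1 to 0.68 for Cdh5, with a median of 0.41. The median over all genes for this pair is not given here. Which members passed depended on the vB libraries used. Without 5 libraries that stand apart over all genes (FNP replicates 4 and 5 and vB replicates 1, 4 and 5), 9 of 10 passed and Cdh5, Kdr and Emcn reached a fold of 2. The vB libraries kept in that comparison are replicates 2, 3 and 6, the ones low in endothelial and mesenchymal transcripts. With the sequencing run or the replicate number as a block, 5 passed. With replicates 1 to 3 or 4 to 6 alone, or after quantile normalization, 0 passed in limma. The shares of all genes that passed or were called between dB and vB in these fits are not given here. The counts therefore have no background.

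The vB libraries were far apart from each other. The summed FPKM of the members was 86.9 in vB replicate 1, 46.8 in replicate 2, 37.8 in replicate 3, 82.7 in replicate 4, 90.8 in replicate 5 and 31.7 in replicate 6, whereas dB lay between 67.9 and 88.3. Replicates 2, 3 and 6 were thus below every dB library, and replicates 1, 4 and 5 were within or just above the dB range. The mean log2(FPKM + 1) of the members was lowest in replicate 6 (1.84) and highest in replicate 5 (3.11).

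Markers of several other cell types moved in the same libraries. The 10 mesenchymal genes summed to 7.12 to 392 FPKM in vB and 235 to 445 in dB. Of these, 4 of 10 (Col1a1, Col1a2, Col3a1 and Prrx1) were called higher in dB, where 1.39% of all genes were called in either direction. The 14 mural cell genes, which mark pericytes and smooth muscle, summed to 20.7 to 66.9 FPKM in vB and 45.6 to 74.7 in dB. The 12 macrophage genes summed to 12.4 to 41.4 FPKM in vB and 33.4 to 47.2 in dB, and the defining genes Ptprc, Fcgr1 and Emr1 were below the filter. Across the 6 vB libraries, the mean log2 level of the members had r = 0.9749 with that of the mesenchymal list, 0.996 with the mural list, 0.913 with the macrophage list and 0.993 with the 18 other pan-endothelial genes. Of the other vessel lists, endothelial transcription factors had r = 0.95, brain barrier genes 0.95, arterial genes 0.86, coreceptors and partners 0.76 and vascular ligands 0.68. The venous and lymphatic list did not move with the members (r = 0.05). Lists not tied to vessels moved as well, with r = 0.87 for surface epithelium, 0.82 for erythroid genes, 0.80 for muscle and −0.64 for the neural list. Values of a library share its dissection and its scaling, and 6 points are few. In dB the correlations with the mesenchymal, mural, macrophage and pan-endothelial lists were −0.33, −0.30, −0.22 and 0.89 (n = 6). The part of the surrounding tissue in the differences between dB and vB was not tested.

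**Figure D3:**
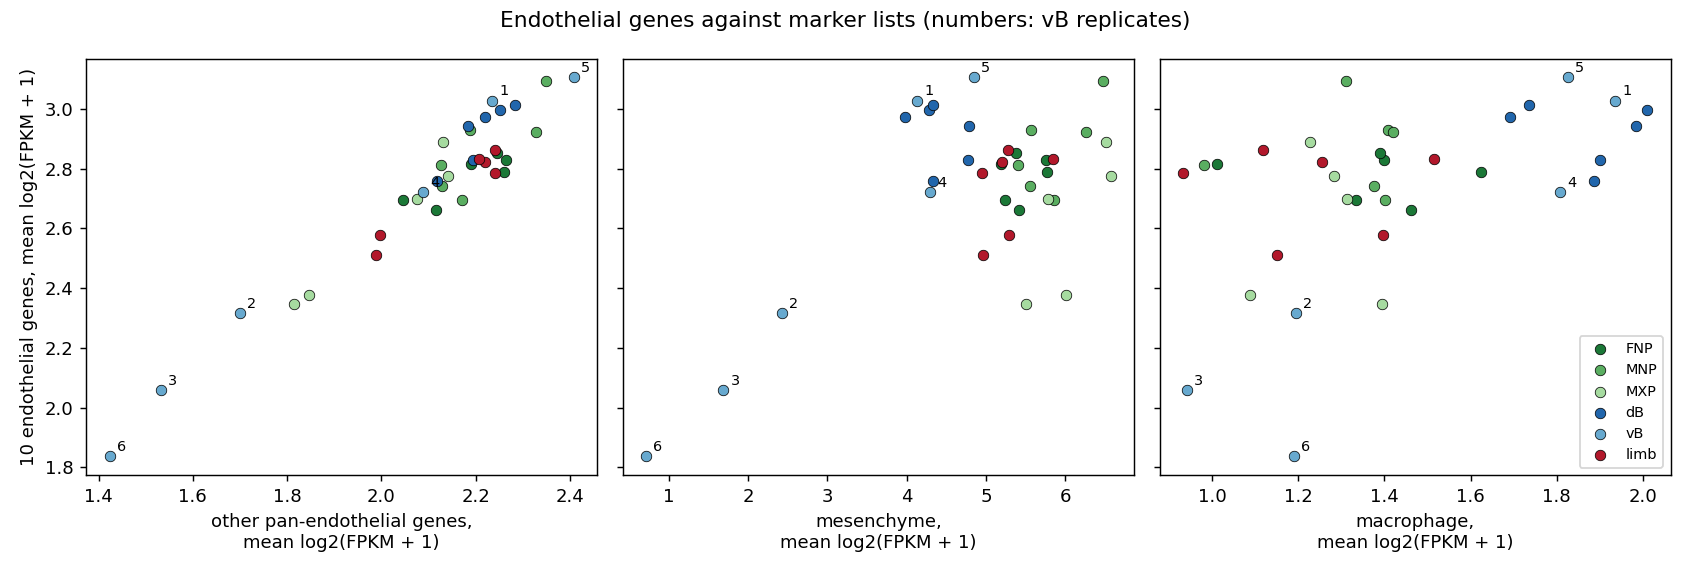
Mean log2(FPKM + 1) of the 10 endothelial genes (vertical axis) against that of 18 other pan-endothelial genes, 10 mesenchymal and 12 macrophage genes (horizontal axes), 1 point per library, with colours for tissues and numbers for vB replicates. The vB replicates 2, 3 and 6 have the lowest endothelial and mesenchymal levels, and facial and limb libraries have more mesenchymal transcript than dB at the same endothelial level.

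The makeup of the endothelial transcripts was compared next. Cldn5 made up 24.7 ± 2.90% of the summed FPKM of the 10 genes in neural tissue (SD, n = 12), 15.6 ± 2.07% in facial tissue (SD, n = 17) and 14.8 ± 1.84% in limb (SD, n = 6). The lowest neural library had 19.7% and the highest facial and limb libraries had 18.8% and 17.2%, so the groups did not overlap, and vB replicates 2, 3 and 6 were on the neural side. Flt4 made up 3.01 ± 0.508% in facial tissue (SD, n = 17) and 1.76 ± 0.532% in neural tissue (SD, n = 12). These shares are descriptions, since the genes were chosen with results known.

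A ratio between 2 members of a library is not changed by a scaling of the whole library. Of the 45 ratios, of which those below were chosen after their values were seen, 6 separated all neural from all facial libraries, 5 separated neural libraries from limb and 0 separated facial libraries from limb. Over single genes the shares of all tested genes without overlap were those given above, and no such background was computed for ratios. The ratio of Cldn5 to Pecam1 was 1.68 to 2.72 in neural libraries, 0.782 to 1.46 in facial and 0.708 to 1.04 in limb libraries. The ratio of Cdh5 to Kdr was 0.792 to 1.49 in neural, 1.71 to 2.45 in facial and 1.81 to 2.57 in limb libraries. Flt1 to Flt4 was 1.45 to 3.71 in neural, 0.678 to 1.31 in facial and 0.886 to 1.34 in limb libraries. Kdr to Flt4 was 4.67 to 14.9 in neural and 2.36 to 3.62 in facial libraries, and in limb it was 5.49 in replicate 4 and 2.57 to 2.97 in the other 5. Each neural library, vB replicates 2, 3 and 6 included, thus had more Cldn5 per Pecam1 and more Kdr per Cdh5 than every facial and limb library.

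**Figure D4:**
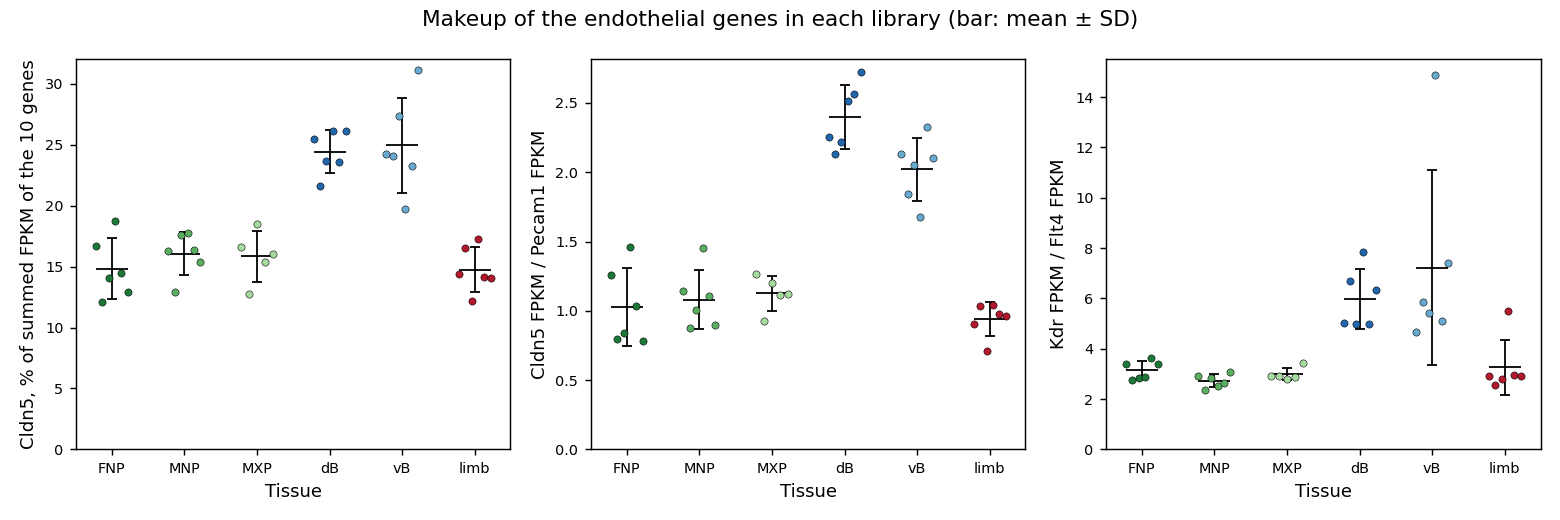
Share of Cldn5 in the summed FPKM of the 10 genes (percent), ratio of Cldn5 to Pecam1 and ratio of Kdr to Flt4 (vertical axes, from 0) in each library by tissue, with mean ± SD as bars (n = 6, MXP n = 5). The dB and vB libraries lie above all facial libraries in each panel, and 1 limb library, replicate 4, reaches the neural range in the third.

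Between libraries of the same tissue the members moved together to different degrees. After subtraction of tissue means, r with the mean of the other 9 members ranged from 0.39 for Emcn to 0.89 for Cdh5 and 0.90 for Kdr (35 libraries, which share depth and scaling). Without the vB libraries (n = 29) these were −0.28, 0.89 and 0.89. Among Cdh5, Flt1, Flt4 and Tie1 r was 0.83 to 0.91. Emcn and Flt1 had r = −0.09.

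The members were also set beside transcript length. The deviation of long from short transcripts in a library, described above, had r = −0.78 with Emcn, −0.50 with Cldn5 and −0.45 with Esam, whose transcripts averaged 1476, 1416 and 1854 bases when weighted by FPKM. It had r = 0.57 with Flt1, 0.54 with Tie1 and 0.51 with Flt4 (35 libraries, tissue means subtracted). The others did not follow length closely: r was −0.21 for Tek (4648 bases) and 0.10 for Kdr (5448 bases), both long, −0.27 for Pecam1 (3240 bases) and 0.29 for Cdh5 (3986 bases). Without the replicates numbered 4 of dB, vB and limb, the values for the first 6 genes were −0.59, −0.42, −0.10, 0.52, 0.28 and 0.37, and those for Tek, Kdr, Pecam1 and Cdh5 were −0.02, 0.33, 0.06 and 0.33 (n = 32). In vB replicate 4, Emcn had 26.8 FPKM while Flt4 had 0.491 and Tie1 2.26. Without these 3 libraries the log2 fold change of Cldn5, a short transcript, was 0.58 against facial tissue and 0.74 against limb. The part of RNA quality in these values was not tested.

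**Figure D5:**
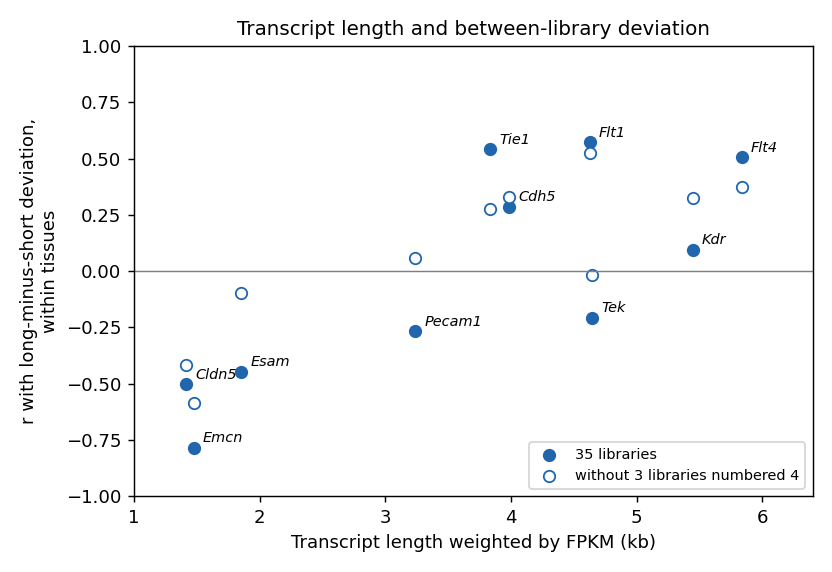
Pearson's r of each endothelial gene with the long-minus-short deviation of the library, tissue means subtracted (vertical axis), against the FPKM-weighted transcript length of the gene in kb (horizontal axis), filled for 35 libraries and open without the replicates numbered 4 of dB, vB and limb. The genes with transcripts under 2 kb lie below 0 and Kdr, Cdh5, Flt4, Tie1 and Flt1 lie above it in both sets, while Tek, a long transcript, lies below it.

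Of the genes with several listed transcripts, Flt1 had 2 that differ greatly in length and were of comparable abundance. The longer has 6280 bases and the shorter 3384 bases, which shares the 5′ end and stops within the gene (chr5:147638067-147725988). GENCODE has a coding transcript with the same 5′ end, of 13 exons and 688 codons, beside the full-length one of 30 exons and 1333 codons. A short secreted form of this receptor is known to bind VEGF-A without signalling. The shorter transcript held 69.9 ± 8.84% of Flt1 FPKM in vB and 56.6 ± 5.65% in dB, 55.5 ± 6.999% in FNP, 57.1 ± 10.7% in MNP, 52.6 ± 8.14% in limb (SD, n = 6 each) and 52.0 ± 8.89% in MXP (SD, n = 5). The vB libraries ranged from 60.3% to 82.8% and overlapped with single libraries of dB, FNP, MNP and limb. Kdr was almost entirely its longest transcript (99.8%). Assignment of reads to overlapping transcripts is an estimate by Cufflinks, and no test was made on it.

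Ligands that act on endothelium were examined next. For this list and those that follow, 11.3% of all genes were called between neural and facial tissue and 12.4% between neural tissue and limb. Of 15 vascular ligands tested, 3 were called higher and 2 lower in neural than in facial tissue at a fold of 2. Wnt7a had 7.13 ± 1.84 FPKM in neural tissue (SD, n = 12) and 0.828 ± 0.396 in facial tissue (SD, n = 17), a log2 fold change of 2.14 (SE 0.12, adjusted p = 9.2e-17). Wnt7b had 43.9 ± 17.5 and 12.7 ± 7.38 FPKM (1.69, adjusted p = 1.4e-07) and Ndp, norrin, 1.90 ± 0.640 and 0.421 ± 0.274 FPKM (1.01, adjusted p = 3.5e-13). These 3 are known as ligands of Frizzled receptors that act on brain and eye vessels. Figf, VEGF-D, a ligand of Flt4, was lower in neural tissue (0.728 ± 0.471 against 2.75 ± 2.02 FPKM, log2 difference −1.002, adjusted p = 7.4e-05), and so was the chemokine Cxcl12 (−1.58). Vegfa (−0.52, adjusted p = 0.0071) and Vegfc (−0.57, adjusted p = 0.00016), named after their values were seen, were lower as well, below a fold of 2. Against limb, Wnt7b, Ndp and Slit2 were called higher and Figf lower.

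Of 15 coreceptors and partners tested, 1 was called higher and 2 lower in neural than in facial tissue. Gpr124 and Reck, which together let endothelial cells respond to Wnt7a and Wnt7b, were lower in neural tissue, Gpr124 at 6.33 ± 4.04 against 25.2 ± 6.08 FPKM (log2 fold change −2.04, adjusted p = 1.4e-09) and Reck at 4.07 ± 1.28 against 9.61 ± 1.34 FPKM (−1.10, adjusted p = 2e-11). Both are also made by mesenchymal and mural cells. Notch1, which neural progenitors express strongly, was higher (1.24, adjusted p = 8e-06). Against limb, Notch1 was called higher and Nrp2, Gpr124 and Unc5b lower.

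None of the 18 other pan-endothelial genes was called at a fold of 2 between neural and facial tissue, neural tissue and limb or facial tissue and limb. The shares of all genes called there were 11.3%, 12.4% and 2.62%. In limma with the adjusted p alone, 3 passed as higher and 4 as lower between neural and facial tissue, with a median log2 fold change of −0.09. The share of all genes passing was 26.8% in each direction. Eltd1, an adhesion receptor of sprouting endothelium, was highest by fold change (0.58, adjusted p = 5.9e-10) and Icam2, an endothelial adhesion molecule, lowest (−0.72, adjusted p = 5.6e-05), both named after their values were seen. Over all libraries and within tissues, the mean log2 level of these 18 genes had r = 0.97 with that of the members (n = 35).

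Of 15 endothelial transcription factors, 3 were called lower in neural tissue than in the face and 0 higher, namely Klf4 (−1.82), Fli1 (−1.68) and Ets2 (−1.44), all of which mesenchymal or epithelial cells also express. Against limb, Gata2 was called higher and Ets2 and Fli1 lower. Of 11 arterial genes, Cxcr4 was called higher (1.79) and Hey2 lower (−1.17), and against limb Cxcr4 was called higher and Unc5b lower. Of 8 venous and lymphatic genes, Pdpn (1.51), Prox1 (1.46) and Reln (1.25), which neural cells also express, were called higher and Ephb4 lower (−1.59), and against limb 5 were called higher and 2 lower. Of 12 brain barrier genes, Mfsd2a, the lipid transporter of brain endothelium, rose from 4.13 ± 0.931 FPKM in facial (SD, n = 17) to 11.1 ± 1.93 in neural tissue (SD, n = 12; log2 fold change 1.25, adjusted p = 3.5e-14), Foxq1 was called higher (1.13) and Lef1 lower (−1.51). In limma with the adjusted p alone, 4 of the 12 barrier genes passed as higher and 4 as lower in neural than in facial tissue. Their median log2 fold change was 0.05. Against limb, Foxf2 (2.12), Foxq1 (1.504), Tnfrsf19 (1.15) and Mfsd2a (1.01) were called higher and none lower. With the adjusted p alone, 7 passed as higher than in limb and 2 as lower. Abcb1a and Slco1c1, transporters of the mature barrier, were below the filter, at 0.408 and 0.741 FPKM in neural tissue.

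Other cell types were described by their marker lists. Between neural and facial tissue 11.3% of all genes were called, and 26.8% passed as higher and 26.8% as lower by adjusted p alone. Between neural tissue and limb these shares were 12.4%, 24.3% and 20.6%, and between facial tissue and limb 2.62% were called. Of 10 mesenchymal genes, 7 were called lower in neural than in facial tissue and 0 higher. Against limb, 6 were called lower and 1, Lum, higher. The summed levels were 7.12 to 445 FPKM in neural, 640 to 1416 in facial and 503.8 to 797 in limb libraries. All 9 macrophage genes tested passed as higher in neural tissue than in the face, 0 of them at a fold of 2 (median 0.44), and 7 of 9 against limb. Their summed levels were 12.4 to 47.2 FPKM in neural, 13.7 to 30.3 in facial and 13.1 to 26.0 in limb libraries. Of 11 mural genes, Tagln (1.02) was called higher than in the face and Pdgfrb (−1.72) and Des (−1.38) lower. In the erythroid and the megakaryocyte and platelet lists no gene was called at a fold of 2 between neural, facial and limb tissue. Of the 10 erythroid genes 2 passed as lower in neural than in facial tissue in limma, and of 5 megakaryocyte and platelet genes 1 passed as higher and 3 as lower. Of 5 muscle genes, 2 were called lower in neural than in facial tissue and 5 lower than in limb. The part of these cells in the values of Pecam1 and Esam, which platelets also carry, was not tested.

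The genes whose deviations between libraries were most like the mean of the members, by Pearson's r of log2(FPKM + 1) after subtraction of tissue means over 35 libraries, were St5 (0.93), Spg20 (0.93), Sorbs3 (0.92), Pdgfrb (0.92), Elk3 (0.92), Eng (0.91), Ehd2 (0.91), Nid1 (0.91), Snai1 (0.90) and Sox18 (0.90). Only Eng and Sox18 of these are in the endothelial lists, and Pdgfrb is a mural and mesenchymal receptor. Without the vB libraries (n = 29), Eng (0.91) and Sox18 (0.90) came first and Pdgfrb, Snai1, Nid1, Sorbs3 and Elk3 were no longer among the first 10.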

How the data were processed

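Poly(A) RNA of 35 libraries was extracted with Trizol and sequenced as paired-end reads of 75 bases, per the labels. The authors deposited FPKM per transcript, estimated with Cufflinks on mm10, and a coverage signal per transcript, used here only to describe depth. Bowtie2, DESeq2 and mm10 stand in the submitters' processing notes, and the aligner behind the Cufflinks values is not given in the sources used here. Each table listed 59120 transcripts, 65 of which had unreadable fields and were left out, and 16 genes had a failed estimate, none of them a member.

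FPKM was summed per gene symbol. Genes whose mean reached 1 FPKM in a tissue (13934) entered a limma model (version 3.58.1 in R 4.3.3, trend and robust) of log2(FPKM + 1). The fit had 1 mean per tissue over all libraries, contrasts were between means of tissue means, and p-values were Benjamini-Hochberg adjusted within a contrast. The fold change on this scale understates that of low genes. In simulated data (13934 genes, the contrast of neural with facial tissue), the model called 100 of 100 genes altered by 1.5 on the log2 scale, 100 of 100 altered by 2.5 and 0 of 13734 unaltered ones. The altered genes were drawn from those with higher mean values, and noise was drawn independently for each library. No alteration as small as the largest log2 fold change of a member between tissues (0.97, Cldn5) was simulated. Detection of differences of that size, in low genes or with deviations shared between libraries was therefore not tested. Per the labels, replicates were independent pools of embryos. No libraries were identical, and the highest r between libraries was 0.995.

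The members, the 15 other gene lists and the tests were chosen with earlier results of these data known. Genes of other lists were named where called, at most 3 per list and comparison unless 5 or fewer were called, and further genes were named after their values were seen, among them Abcb1a and Slco1c1. The counts by adjusted p alone were also added after the data were seen. Alternatives were a pseudocount of 0.1, no filter on low values, quantile normalization, FPKM rescaled to a sum of 1000000 over transcripts of at least 200 bases, the replicate number or sequencing run as a block, fits to replicates 1 to 3 and to replicates 4 to 6, omission of each MXP library, of vB replicate 4, of 5 libraries and (after seeing the data) of dB, vB and limb replicates 4, and a test against a fold of 1.5. Descriptive values were computed with pandas 2.3.3 under Python 3.11.15.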

Additional observations from a re-analysis of the deposited data

Results flagged for a closer look

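Each member was examined in each tissue for a library far from the others of its group, by Dixon's test, and 1 of 60 groups was marked, where chance alone would mark about 3. Emcn in limb had 20.7 FPKM in replicate 4 and 9.69 to 11.8 FPKM in the other 5 libraries, a gap of 0.812 of the range against a critical value of 0.625. Limb replicate 4 also had long transcripts lower against short ones (−0.62 on the log2 scale), and the part of this in the value of Emcn was not tested.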

How the results depend on the processing

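The counts of members called at a fold of 2 stayed at 0 between neural, facial and limb tissue and between the facial tissues under the 17 alternatives tried. Over any pair of tissues, 0 members in the reported fit became 3 with a pseudocount of 0.1 (Cdh5, Cldn5 and Flt4), 4 without 5 libraries (Cdh5, Emcn, Flt4 and Kdr), and 1 with FPKM rescaled over longer transcripts (Flt4), with replicates 1 to 3 alone (Emcn), with replicates 4 to 6 alone (Cdh5), without vB replicate 4 (Emcn) and without dB, vB and limb replicates 4 (Emcn), the last chosen after seeing the data. Leaving out 1 MXP library gave 0 to 1 (Cldn5 without MXP replicate 6). For dB against vB, the count at a fold of 2 was 3 without 5 libraries and 0 otherwise. The share of all genes called in that fit is not given here.

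By adjusted p alone, the 4 members between neural and facial tissue were 2 with replicates 4 to 6 alone and 5, with Emcn, in 6 alternatives, among them the replicate block and the fit without vB replicate 4. The count stayed at 4 in the other 9, but with replicates 1 to 3 alone Emcn passed in place of Cdh5. The 2 between neural tissue and limb were 4 with the sequencing run as a block, 6 without 5 libraries 1 with replicates 1 to 3 or 4 to 6 alone, and 3 after quantile normalization, without vB replicate 4 and without the 3 replicates numbered 4. The 1 between dB and vB was 0 after quantile normalization and with replicates 1 to 3 or 4 to 6 alone. It was 5 with the sequencing run or the replicate number as a block, and 9 without 5 libraries. Without vB replicate 4, or without the 3 replicates numbered 4, it was 2. The shares of all genes passing by adjusted p alone under the alternatives are not given here. Fits to fewer libraries had fewer residual degrees of freedom. The part of the degrees of freedom in the counts, and any other cause, was not tested.

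The labels do not say that replicate numbers mark a batch, but by the file names libraries numbered 1, 3, 5 or 6 shared a sequencing run across tissues, as did those numbered 2 except limb. The reported fit used neither the numbers nor the runs as a block, so its p-values do not account for deviations shared by same-numbered libraries. Deviations of same-numbered libraries had a median r of 0.34 and a lowest of 0.01 over 85 pairs, 78 of them over 0.1, against −0.07 for different numbers. With the replicate number as a block, 5 members passed between dB and vB, 5 between neural and facial tissue and 2 between neural tissue and limb, and 0 were called at a fold of 2 in any pair.

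Of the log2 fold changes of single members between neural, facial and limb tissue, 436 values under alternatives kept their direction and side of the threshold, 17 newly passed, 5 no longer passed and 22 changed sign, none of the last to a value that passed. Neural against facial, these were Kdr (−0.018), Flt1 (−0.034), Tek (−0.022) and Esam (−0.018) without 5 libraries, Flt1 after quantile normalization (−0.021) and Tie1 with replicates 1 to 3 alone (0.11) and without the 3 replicates numbered 4 (0.078), and Tie1 ranged from −0.070 to 0.031 with 1 library left out. Neural against limb, they were Flt1 (−0.015) and Tie1 (−0.037) after quantile normalization, Tie1 with the run as a block (−0.044), with replicates 4 to 6 alone (−0.14) and without 5 libraries (−0.069), Tek with replicates 4 to 6 alone (0.074) and Esam without 5 libraries (−0.11). Facial against limb, they were Cdh5 (−0.065), Tie1 (−0.016) and Emcn (0.078) with the run as a block, Cdh5 (−0.011) and Cldn5 (−0.021) with replicates 4 to 6 alone, Emcn without the 3 replicates numbered 4 (0.052) and Esam with replicates 1 to 3 alone (0.042). The tables held no counts, so that depth set no stated limit.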
